A study of Danio rerio with 8 samples.

Results

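The genes described here are 6 genes of leukocytes, 5 that act on actin filaments (scinlb, coro1a, lcp1, wasb and capgb) and ptprc, which codes for the surface phosphatase CD45. They were read in cells sorted from embryonal rhabdomyosarcomas of zebrafish, muscle-like tumours. Probe sets were taken where the only gene symbol in the array annotation was one of these 6. This gave 7 of the 15502 probe sets on the array, 2 for coro1a and 1 for each of the other genes. They make up 6 of the 8793 genes with such a probe set. The genes were selected on earlier results of the same arrays. Which comparison chose each gene is inferred, and is taken to be mainly that of GFP-only with double-negative cells. That comparison and the one of GFP-only with mCherry-only cells are therefore given as descriptions, without a test.

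The tumours arose in fish that carried myf5-GFP and mylz2-mCherry and had been injected, as one-cell embryos, with rag2-kRAS12D, an activated kras under the rag2 promoter. Their cells were grown in recipient fish of the same genetic background, labelled CG1-strain (4 times outcrossed), which had no fluorescent reporter, and were taken more than 20 days after transplantation. All groups were sorted from tumours that arose with this transgene, in fish of this background. Whether every sorted cell carried the transgene was not tested. By 2 rounds of flow sorting, each of 2 tumours gave 4 populations: GFP-only cells, with the early myogenic reporter; double-positive cells; mCherry-only cells, with the reporter of differentiated fast muscle; and double-negative cells. Each population thus has 2 arrays (n = 2 tumours), a number that limits all estimates. The study set out to compare the cells with high myf5-GFP with the remaining tumour cells. Ages are not in the labels used here, and no label says whether recipient cells were removed, for example by a blood cell marker.

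Leukocytes crawl, engulf and form contacts through a fast-turning actin cortex. WASp activates the Arp2/3 complex, which branches new filaments; coronin 1A binds filaments and that complex; L-plastin bundles filaments; and proteins of the gelsolin family sever them or cap their fast-growing ends. Several of these proteins have relatives that serve the same steps in other cells. WASp, coronin 1A and L-plastin are known mainly from blood cells in mammals, and lcp1 and coro1a are used to mark leukocytes in zebrafish. CD45 is found on leukocytes and dephosphorylates Src family kinases.

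All values are log signals as deposited. They were taken as log2 although the sources used here name no base; natural logarithms would mean larger true differences. Array medians lay between 4.54 and 4.71. Signal over background was not measured, so the place of a value among all probe sets of its array is given as a percentile, and differences are not turned into folds. In tumour 2, both GFP-negative arrays (mCherry-only and double-negative) stood apart from the rest, with mean rank correlations of 0.648 and 0.653 with the GFP-positive arrays, against 0.805 to 0.849 for the other arrays. As a check of the sort, mylpfa, the current name of mylz2, averaged 10.79 in double-positive cells, 10.01 in mCherry-only cells, 6.82 in GFP-only cells and 4.66 in double-negative cells. The averages of myf5 were 5.34 for GFP-only, 4.92 for double-positive, 3.81 for mCherry-only and 4.02 for double-negative arrays. No difference of myf5 between populations passed by limma (lowest adjusted p = 0.476, mCherry-only against GFP-only). For mylpfa the brighter of 2 probe sets is given.

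In both tumours, 6 of the 7 probe sets were lower in GFP-only and double-positive cells than in mCherry-only and double-negative cells, with no overlap between the 4 GFP-positive and the 4 GFP-negative arrays. Of all probe sets, 2.89% showed that order. Since these genes were chosen for this difference, nothing is read from the count. In bulk samples, fewer cells of a type and less RNA per cell cannot be told apart.

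The gene wasb, a WASp gene, had values of 4.57 and 3.51 in GFP-only cells of tumours 1 and 2, 4.89 and 5.84 in double-positive, 8.32 and 9.43 in mCherry-only and 9.14 and 9.69 in double-negative cells. The GFP-negative arrays held it between the 96.2nd and 98.8th percentile of their probe sets, and the GFP-positive arrays between the 21.9th and 72.4th. Its difference between double-negative and GFP-only cells was 5.38 ± 0.65 (limma's standard error, n = 2 arrays per population), or 4.57 within tumour 1 and 6.18 within tumour 2. GFP-only cells of tumour 2 were the lowest array and double-negative cells of the same tumour the highest.

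The 2 probe sets of coro1a, the coronin gene, disagreed. The brighter one had values of 3.64 and 4.25 in GFP-only, 5.18 and 6.24 in double-positive, 9.27 and 9.64 in mCherry-only and 9.31 and 10.44 in double-negative cells. No populations overlapped except mCherry-only and double-negative cells. The dimmer one had values of 3.37 and 3.17 in GFP-only, 2.85 and 3.28 in double-positive, 2.84 and 2.60 in mCherry-only and 3.47 and 4.28 in double-negative cells. It never exceeded the 39.9th percentile of an array, and its whole range over the 8 arrays was 1.68 against 6.80 for the brighter one. Between mCherry-only and GFP-only cells the probe sets differed in sign, with 5.51 ± 0.63 for the brighter and -0.55 ± 0.54 for the dimmer. The annotation used here lists an accession for the dimmer probe set and none for the brighter one, and which transcript each reads was not tested.

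The plastin gene lcp1 had values of 3.13 and 1.79 in GFP-only, 3.57 and 5.56 in double-positive, 7.79 and 8.69 in mCherry-only and 8.22 and 8.30 in double-negative cells. Double-positive cells of the 2 tumours differed by 1.99, the largest gap between tumours of any of the 7 probe sets in any population. Of the 6 genes, lcp1 was the one whose mCherry-only and double-negative means were closest, at 8.24 ± 0.64 (SD, n = 2) and 8.26 ± 0.06.

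The gelsolin family members were scinlb, a scinderin-like gene, and capgb, which codes for a filament-capping protein. In GFP-only cells scinlb was at 0.35 and 0.68, within the lowest 0.6% of probe sets on each array. It was at 2.30 and 2.83 in double-positive, 6.42 and 7.31 in mCherry-only and 7.87 and 8.38 in double-negative cells. It thus had the widest range of the 7 probe sets, 8.03, with 4 populations that did not overlap. Values of capgb were 2.07 and 2.19 in GFP-only, 3.11 and 5.07 in double-positive, 6.27 and 6.19 in mCherry-only and 7.11 and 7.80 in double-negative cells. Its gap between the highest GFP-positive and the lowest GFP-negative array, 1.12, was the smallest of the 6 probe sets that separated them; the other gaps were between 2.23 and 3.59. Double-positive cells of tumour 2 set the lower side of that gap.

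The phosphatase gene ptprc had values of 1.98 and 2.97 in GFP-only, 3.01 and 3.31 in double-positive, 7.62 and 7.80 in mCherry-only and 6.88 and 7.73 in double-negative cells. It was the one gene of the 6 whose mCherry-only mean was above its double-negative mean, 7.71 ± 0.13 against 7.30 ± 0.60 (SD, n = 2), and these arrays overlapped. The GFP-positive arrays held it at or under their 17.9th percentile.

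**Figure D1:**
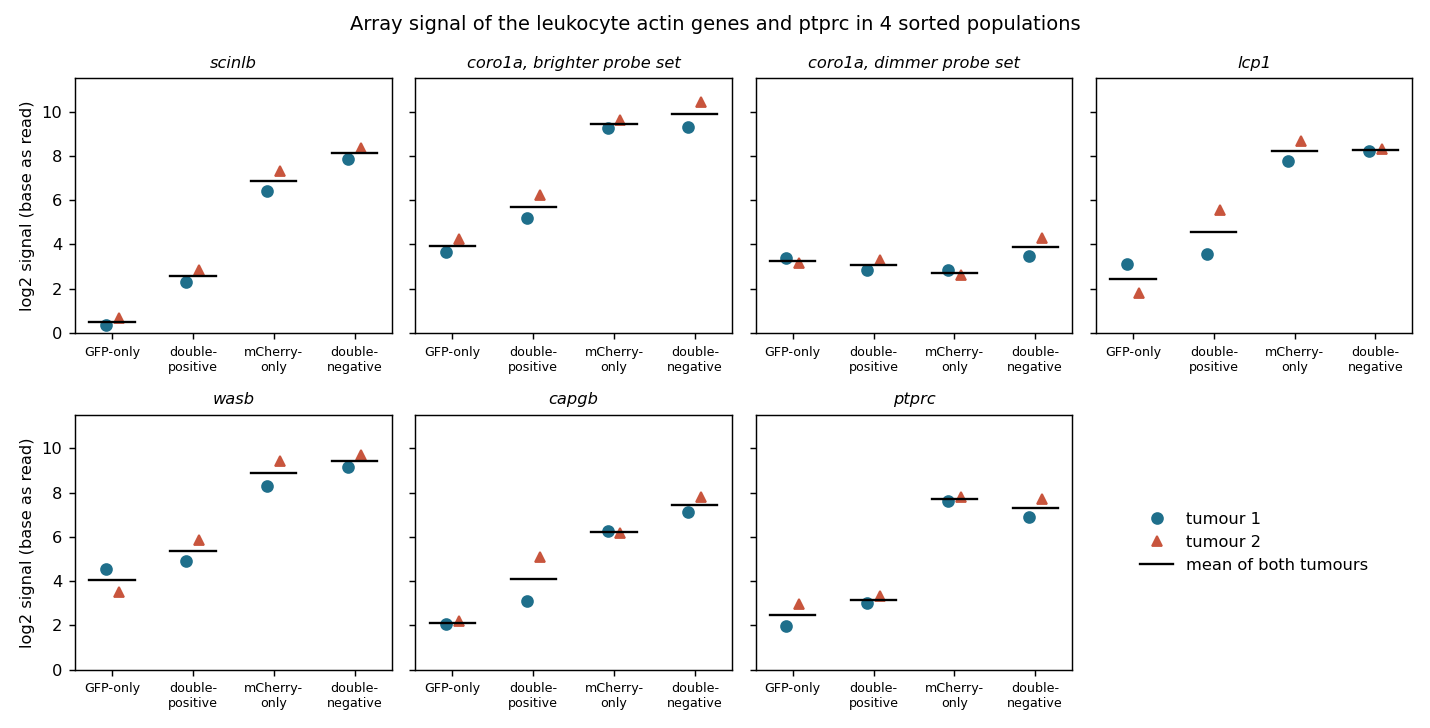
Log2 signal of each of the 7 probe sets (vertical axis) in the 4 sorted populations (horizontal axis); circles are tumour 1, triangles tumour 2 and bars the mean of both. In 6 panels all mCherry-only and double-negative arrays lie above all GFP-only and double-positive arrays, while the dimmer coro1a probe set stays between 2.60 and 4.28.

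Double-negative minus GFP-only values were 7.61 for scinlb, 5.93 for the brighter coro1a probe set, 5.80 for lcp1, 5.32 for capgb and 4.83 for ptprc, next to 5.38 for wasb and 0.60 for the dimmer coro1a probe set. Between mCherry-only and GFP-only cells they were 6.35 for scinlb, 5.78 for lcp1, 5.24 for ptprc, 4.84 for wasb and 4.10 for capgb. Over all probe sets limma called 0.516% higher in double-negative than in GFP-only cells and 0.839% higher in mCherry-only than in GFP-only cells, or 0.761% and 1.48% with the tumour as a block. Each of these differences had the same sign in both tumours. They differed most between tumours for lcp1 (mCherry-only minus GFP-only, 4.66 within tumour 1 and 6.90 within tumour 2) and wasb (3.75 and 5.92).

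The other 4 comparisons of populations were taken as not having chosen the genes, but this is inferred and they reuse the same arrays. Double-negative and mCherry-only against double-positive cells also lie within the split of GFP-negative from GFP-positive arrays described above. Selection for high double-negative and mCherry-only and for low GFP-only values favours a difference from double-positive cells too. The p-values below are therefore those of the fit over all probe sets and no independent test of the members. Nothing is read from the members' counts against the shares of all probe sets. In double-negative cells 4 of the 7 probe sets were higher than in double-positive cells by limma, namely scinlb, the brighter coro1a probe set, ptprc and wasb, beside 0.303% of all probe sets. The difference was 5.56 ± 0.57 for scinlb (adjusted p = 0.00482), the same in both tumours to within 0.02 (5.57 and 5.55). It was 4.16 ± 0.63 for coro1a (adjusted p = 0.0217), 4.14 ± 0.58 for ptprc (0.0158) and 4.05 ± 0.65 for wasb (0.0279). The values of 3.70 for lcp1 and 3.36 for capgb did not pass (adjusted p = 0.0862 and 0.0833), but did so with the tumour as a block (0.0448 and 0.0253), which made 6 of 7, beside 0.587% of all probe sets. For these genes the difference was smaller in tumour 2 (2.74 and 2.73) than in tumour 1 (4.65 and 4.00). The dimmer coro1a probe set was at 0.81 ± 0.54 (adjusted p = 0.999). The median over the 7 probe sets was 4.05, against -0.05 over all probe sets. Without either double-positive array 0 of the 7 were called by limma, with scinlb at adjusted p-values of 0.128 and 0.0824. Without the double-negative array of tumour 2, or without both arrays that stood apart, scinlb alone was called.

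In mCherry-only cells 3 of the 7 probe sets were higher than in double-positive cells, beside 0.329% of all probe sets; here too the mCherry-only values took part in the choice. The difference was 4.55 ± 0.58 for ptprc and 4.30 ± 0.57 for scinlb, each with an adjusted p of 0.0276 by limma, and 3.74 ± 0.63 for the brighter coro1a probe set (0.0432). Here ptprc, not scinlb, had the largest value, and its within-tumour differences were 4.61 and 4.49. The value of wasb, 3.51 ± 0.65, had an adjusted p of 0.0567 and passed with the tumour as a block (0.0282), which made 4 of 7, beside 0.832%. The values of lcp1, 3.68 ± 0.76, and capgb, 2.14 ± 0.68, did not pass (adjusted p = 0.0886 and 0.446; with the block 0.0538 and 0.202). The dimmer coro1a probe set was at -0.34 ± 0.54. The median over the 7 was 3.68, against 0.03 over all probe sets. These calls rested on more of the arrays: 0 of the 7 were called without any one of the GFP-only, double-positive or mCherry-only arrays, or without both arrays that stood apart, with adjusted p up to 0.321 for scinlb, 0.312 for ptprc and 0.405 for coro1a. The differences themselves stayed between 3.22 and 4.74 for these 3 when 1 array was left out.

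Between the 2 GFP-positive populations, 6 of the 7 probe sets had a higher mean in double-positive than in GFP-only cells, and in those 6 the arrays did not overlap. Of all probe sets 13.1% were higher in both double-positive arrays than in both GFP-only arrays. The low GFP-only values took part in the choice of the genes, which favours this order, so nothing is read from the members' counts here. The differences were 2.1 ± 0.76 for lcp1, 2.05 ± 0.57 for scinlb, 1.96 ± 0.68 for capgb, 1.76 ± 0.63 for the brighter coro1a probe set, 1.32 ± 0.65 for wasb and 0.68 ± 0.58 for ptprc. By limma 0 of the 7 passed (adjusted p = 1 for each) and 0.00645% of all probe sets did (0 of 7 and 0.116% once the tumour was a block). At an unadjusted p under 0.05, 4 of the 7 were higher (scinlb, lcp1, capgb and the brighter coro1a probe set), as were 1.43% of all probe sets. The 95% interval of the difference was 0.79 to 3.31 for scinlb, 0.42 to 3.79 for lcp1 and -0.61 to 1.98 for ptprc. For lcp1 the difference was 0.44 in tumour 1 and 3.77 in tumour 2, and for wasb 0.32 and 2.33, whereas that of scinlb was 1.95 and 2.15. The GFP-positive arrays held scinlb at or under their 10.3rd percentile, and such low values limit how far its difference can be read. The mean over the 6 genes was 2.62 and 2.56 in GFP-only cells of the 2 tumours but 3.68 and 4.81 in double-positive cells.

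Between the 2 GFP-negative populations, 0 of the 7 probe sets passed by limma, against 0.277% of all probe sets (0 of 7 and 0.761% once the tumour was a block). At an unadjusted p under 0.05 the count was also 0 of 7, while 3.72% of all probe sets were higher and 2.46% lower in mCherry-only cells. The mCherry-only minus double-negative difference was -1.26 for scinlb (95% interval -2.52 to 0.00, adjusted p = 0.809) and -1.23 for capgb (-2.74 to 0.29). It was -0.54 for wasb (-1.99 to 0.91), -0.42 for the brighter coro1a probe set (-1.82 to 0.98) and -0.02 for lcp1 (-1.71 to 1.67). For ptprc it was 0.40 (-0.89 to 1.70). These intervals are wide, so that equal levels are not shown. The arrays of these populations did not overlap for scinlb, capgb and the dimmer coro1a probe set, all lower in mCherry-only cells, an order found in 13.6% of all probe sets. With coro1a read by its brighter probe set, the population means ran from GFP-only through double-positive and mCherry-only to double-negative cells in 5 genes. For coro1a, lcp1 and wasb the mCherry-only and double-negative arrays overlapped. The choice of the genes favours this order, and its share of all probe sets is not given, so nothing is read from the count. No difference between neighbours at either end of that order passed by limma after adjustment over all probe sets. Before that adjustment, 4 of the 7 probe sets differed between double-positive and GFP-only cells, as given above. The dimmer coro1a probe set had another order, with its lowest mean in mCherry-only and its highest in double-negative cells.

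**Figure D2:**
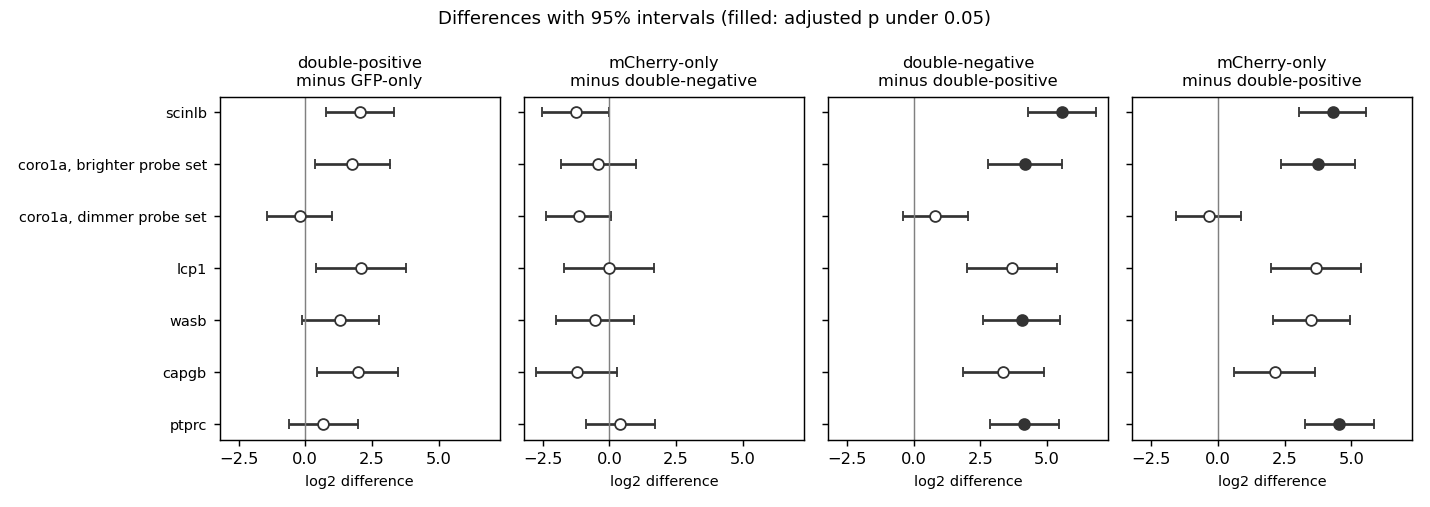
Log2 difference (horizontal axis) of each of the 7 probe sets in the 4 comparisons taken as not having chosen the genes. Bars are 95% intervals from limma. Filled points have an adjusted p under 0.05 and are no independent test of the members. Both comparisons against double-positive cells hold filled points, 4 and 3 of 7, while the comparisons within the GFP-positive and within the GFP-negative pair hold 0.

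Marker lists of other cell types moved with the sorted populations, and their part in the members' values was not tested. These lists, and those of cytoskeleton and signalling genes below, were chosen with earlier results of these data known. Their counts are therefore no independent test, and nothing is read from them against the shares of all probe sets. The macrophage list (9 of 14 genes measured, among them marco, c1qc and csf1ra) had mean levels of 4.32 to 4.36 in GFP-only, 5.94 to 6.14 in double-positive, 9.47 to 9.68 in mCherry-only and 5.87 to 6.42 in double-negative cells. The granulocyte list (8 of 10, among them lyz and mpx) had 4.38 to 4.42, 4.59 to 4.8, 5.17 to 6.04 and 7.42 to 8.67 in the same order. Its lysozyme gene lyz had means of 2.1, 2.56 and 2.72 and then 10.69 in double-negative cells, the largest step of the list. Means in mCherry-only and double-negative cells were 4.59 and 6.08 for mpx and 8.93 and 9.16 for srgn. The order was reversed in 1 of the 8 genes, cebpa, at 6.73 and 5.26. The erythroid list (9 of 12) had 2.60 to 2.95, 2.88 to 2.96, 3.89 to 4.99 and 6.50 to 7.57.

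The fast muscle list (13 of 16), which includes mylpfa, had mean levels of 5.86 to 6.97 in GFP-only, 10.18 to 10.63 in double-positive, 8.60 to 10.39 in mCherry-only and 3.60 to 5.16 in double-negative cells. Between double-negative and double-positive cells 10 of the 13 were lower by limma (13 with the tumour as a block; 0 to 12 with 1 array left out; median difference -6.14). In double-positive cells all 13 had higher means than in GFP-only cells (median 4.07), of which 1 passed, or 8 with the block (0 to 3 with 1 array left out). Between mCherry-only and double-positive cells 0 of the 13 passed (median -0.91; 0 with the block and 0 at an unadjusted p under 0.05). Of 8793 named genes, 61 were called between double-negative and double-positive cells, 33 of them higher. Between mCherry-only and double-positive cells 0.421% were called higher. Of all probe sets, 0.00645% passed between double-positive and GFP-only cells, or 0.116% with the block.

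The members as a set of 6 had means of 7.61 and 8.18 for mCherry-only and 8.09 and 8.72 for double-negative arrays, so that they were high both where the macrophage list and where the granulocyte and erythroid lists were highest. Since the lists were chosen with earlier results known, the list counts that follow are a description, from which nothing is read. Between mCherry-only and double-negative cells 5 of 9 macrophage genes were higher by limma, against 0.187% of all probe sets. Lower were 1 of 8 granulocyte (lyz) and 1 of 9 erythroid genes (nt5c2l1), against 0.0903%. The median differences of the 3 lists were 3.73, -2.13 and -2.69. With the tumour as a block the counts were 7, 2 and 5, beside 0.761% of all probe sets in either direction. With 1 array left out they ran from 0 to 5, 0 to 1 and 0 to 2, and the macrophage count was 0 without both arrays that stood apart. In double-positive against GFP-only cells, where the members had higher means, 9 of 9 macrophage genes also had a higher mean (median difference 1.41) and 0 passed by limma (1 with the tumour as a block, 1 without both arrays that stood apart, and 5 at an unadjusted p under 0.05). Lymphoid markers were few on the array (4 of 11 measured), and their mean level lay between 2.39 and 4.41 on all arrays. Population means of rag1 and rag2 lay between 2.14 and 3.35, and those of pax5 between 3.74 and 4.58. For ikzf1 the mean rose from 2.36 in GFP-only cells to 6.35 in double-negative cells. By limma this was the 1 lymphoid marker of 4 called higher between these populations (adjusted p = 0.0163). It was also the 1 of 4 called between double-negative and double-positive cells (0.00939). With 1 array left out, the count was 0 to 1 in both comparisons. Endothelial markers (6 of 11) had mean levels between 3.04 and 4.52. No marker value in these lists was exactly 0.

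**Figure D3:**
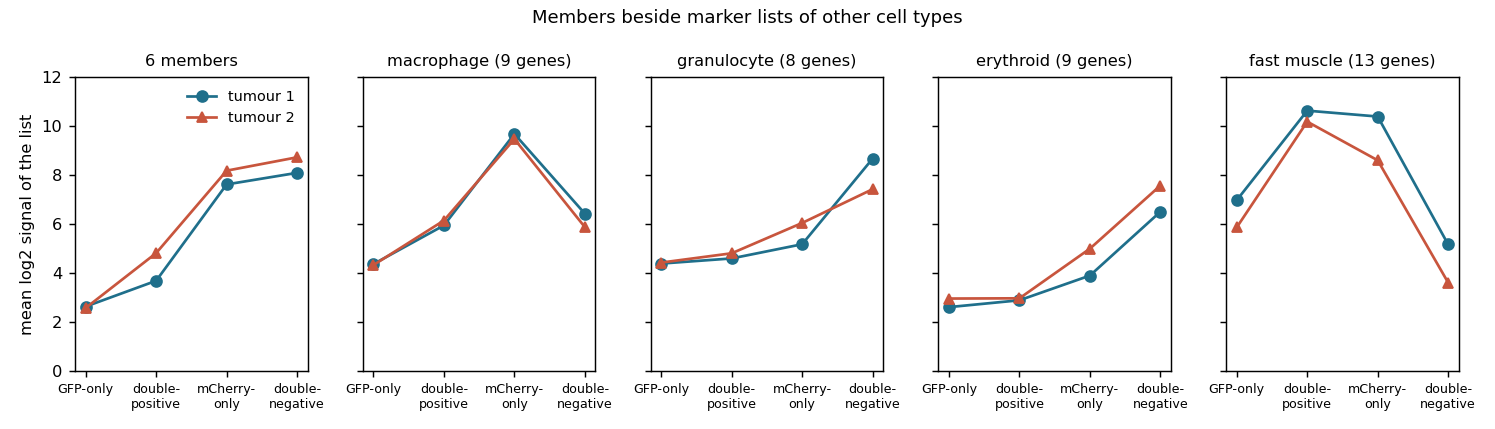
Mean log2 signal (vertical axis) of the 6 members, each by its brighter probe set, and of 4 marker lists in the sorted populations (horizontal axis), with circles for tumour 1 and triangles for tumour 2. Members are high in both GFP-negative populations; the macrophage list peaks in mCherry-only cells at 9.68 and 9.47, the granulocyte and erythroid lists in double-negative cells.

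Other genes of the leukocyte cytoskeleton were read from a list of 32, of which 6 were measured. In this list 2 genes were higher in double-negative than in GFP-only cells by limma (0.516% of all probe sets) and 0 lower. The Arp2/3 subunit gene arpc1b, a form enriched in mammalian blood cells, had values of 6.04 and 5.92 in GFP-only, 5.38 and 6.74 in double-positive, 8.41 and 9.23 in mCherry-only and 9.15 and 9.77 in double-negative cells. Its double-negative minus GFP-only difference was 3.48 ± 0.63 (adjusted p = 0.0465, and 0.0476 to 0.322 with 1 array left out). The gene arhgdig was at 4.28 and 4.83, 5.13 and 4.97, 8.09 and 7.69, and 8.05 and 8.01, in the same order. It differed from GFP-only cells by 3.48 ± 0.52 in double-negative cells (adjusted p = 0.0233) and by 3.34 ± 0.52 in mCherry-only cells (0.0153), and from double-positive cells by 2.98 in double-negative cells (0.0422). With 1 array left out these adjusted p-values reached 0.230, 0.143 and 0.364, and its second probe set gave 1.43, 1.04 and 1.88, none of which passed. The engulfment adaptor gene elmo1 (1.3) and evlb (0.69), an Ena/VASP-like gene, did not pass between double-negative and GFP-only cells. The paralogue of scinlb, scinla, had the opposite sign, with means of 4.43, 4.14, 2.92 and 3.96 and differences from GFP-only cells of -1.51 in mCherry-only (adjusted p = 0.444) and -0.46 in double-negative cells; it is named here after its values were seen. The median of the 6 genes was 0.99 for that comparison and 1.77 between mCherry-only and GFP-only cells, against -0.05 and -0.01 over all named genes. With the tumour as a block, arpc1b also passed in mCherry-only against GFP-only cells (adjusted p = 0.0266) and, in double-negative and mCherry-only cells, against double-positive cells (0.0132 and 0.0452). The block likewise brought arhgdig past the threshold in mCherry-only against double-positive cells (0.0282).

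For the general actin machinery, 60 gene symbols were listed and 35 genes measured, not all of them used by every cell. Of these genes 0 passed in any of the 6 comparisons by limma. Of all named genes, 0.0114% to 1.03% were called higher in a comparison. At an unadjusted p under 0.05, 0 to 3 listed genes were higher and 0 to 2 lower. Of all probe sets, 1.43% were higher in double-positive than in GFP-only cells at that threshold. Between mCherry-only and double-negative cells 3.72% were higher and 2.46% lower. Such shares are not given for the other comparisons, so nothing is read from these counts. The list's median difference was 0.26 between double-negative and GFP-only cells and 0.46 between mCherry-only and GFP-only cells, against -0.05 and -0.01 over all named genes. Profilin gene pfn1 was the member with the largest value, 3.72 ± 0.73 between double-negative and GFP-only cells, from 7.79 and 5.42 to 10.12 and 10.52 (adjusted p = 0.0793; with the tumour as a block 0.0430). Between mCherry-only and GFP-only cells it was 3.35 (0.0877; with the block 0.0458). Values for tmsb, a thymosin beta gene, were 10.69 and 10.70 in GFP-only cells and 10.07 and 5.63 in double-negative cells, so that its difference of -2.84 came almost wholly from tumour 2. For pfn2a, also a profilin gene, the difference of -1.82 likewise went from 7.80 to 7.38 in tumour 1 and from 6.02 to 2.81 in tumour 2. The Arp2/3 subunit gene arpc4 differed by 1.88 (adjusted p = 0.544). Whether the members differ from this list was not tested.

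Signalling genes of leukocytes, among which ptprc acts, were read from a list of 31 with 14 measured. By limma 4 were higher in double-negative than in GFP-only cells (0.671% of all named genes) and 4 in mCherry-only than in GFP-only cells (1.03%). Against double-positive cells 2 were higher in double-negative (0.375%) and 2 in mCherry-only cells (0.421%), and 0 were lower. With the tumour as a block, 5, 5, 4 and 3 passed in these comparisons. Of all probe sets 0.761%, 1.48%, 0.587% and 0.832% were then called higher. The list's medians in these comparisons were 1.72, 2.15, 1.08 and 1.62, against -0.05, -0.01, -0.06 and -0.03 over all named genes. The lists overlap, since csf1ra is also a macrophage and ikzf1 a lymphoid marker here. The lysosomal membrane gene laptm5 passed in all 4 of these comparisons. Its values were 3.84 and 4.18 in GFP-only, 5.45 and 4.97 in double-positive, 9.15 and 8.95 in mCherry-only and 8.78 and 9.01 in double-negative cells, close to equal at the high end as in ptprc. Its differences from GFP-only cells, 4.88 ± 0.52 and 5.04 ± 0.52, stayed called when any 1 array was left out (highest adjusted p = 0.0468 and 0.0264), while those from double-positive cells did not (0.198 and 0.273). The adaptor gene lcp2a, which codes for SLP-76, was higher than in GFP-only cells by 3.70 ± 0.62 in double-negative (adjusted p = 0.0373) and 3.47 ± 0.62 in mCherry-only cells (0.0338); with 1 array left out these reached 0.304 and 0.254. With the tumour as a block lcp2a also passed between double-negative and double-positive cells (3.21, adjusted p = 0.0363).

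Other genes of this list had unequal means in the GFP-negative populations. The lymphoid factor gene ikzf1 was at 6.45 and 6.25 in double-negative cells and 4.81 and 4.4 in mCherry-only cells. It differed by 4.00 ± 0.57 between double-negative and GFP-only cells (adjusted p = 0.0163) and by 4.42 from double-positive cells (0.00939), but mCherry-only minus double-negative, -1.74, did not pass (0.511, blocked 0.281). The Ras GTPase-activating gene rasal3 was at 6.76 and 7.33 in double-negative cells but at 3.27 and 4.06 in mCherry-only cells, near its GFP-only values of 3.17 and 4.05. Its difference was 3.44 ± 0.58 between double-negative and GFP-only cells (adjusted p = 0.0373) and -3.38 ± 0.58 between mCherry-only and double-negative cells (0.0562, and 0.0164 with the block). Against double-positive cells it was 3.14 (adjusted p = 0.0530, blocked 0.0172). The gene spi1b, which codes for the myeloid factor PU.1, was at 8.03 and 8.46 in mCherry-only cells against 6.63 and 4.64 in double-negative cells. It differed by 5.16 ± 0.68 between mCherry-only and GFP-only cells (adjusted p = 0.00665) and by 4.41 from double-positive cells (0.0362); its second probe set gave 3.51 (0.0145) and 2.28 (0.182). Between mCherry-only and double-negative cells spi1b was at 2.61 and did not pass (adjusted p = 0.262, blocked 0.151). The macrophage growth factor receptor gene csf1ra was at 8.82 and 8.12 in mCherry-only and 5.39 and 4.09 in double-negative cells, a difference of 3.73 ± 0.74 (adjusted p = 0.0929, blocked 0.0287), and differed by 4.93 between mCherry-only and GFP-only cells (0.0123) and 3.75 from double-positive cells (0.0750, blocked 0.0242). With 1 array left out, the called differences of ikzf1, rasal3, spi1b and csf1ra reached adjusted p-values of 0.176 and 0.161, 0.329, 0.0717 and 0.370, and 0.120, in the order given.

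Among themselves the members followed one pattern over the 8 arrays. Pearson's r between the brighter probe sets of the 6 genes lay between 0.909 and 0.991 (15 pairs, median 0.968), and that of the dimmer coro1a probe set with them between 0.097 and 0.329. These are descriptions over arrays that come from 2 tumours and 4 sort gates, and the genes were chosen for a shared difference. All 7 probe sets were higher in tumour 2 than in tumour 1, both for double-positive and for double-negative cells, with medians of 0.95 and 0.69. Over all probe sets the median was 0.12 and 0.03 there, and the median size of the tumour difference 0.56 and 0.84, so that the members' shift in double-negative cells was smaller than that size. In GFP-only cells 4 of 7 were higher in tumour 2, with differences from -1.34 to 0.99, and in mCherry-only cells 5 of 7, from -0.24 to 1.11. The share of all probe sets higher in tumour 2 is not given, and most members move together. Nothing is therefore read from these counts.

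Among 8787 other named genes, the 10 whose values over the 8 arrays were most like the mean of the 6 members had Pearson's r between 0.976 and 0.994. They were rgs13a, dok2, srgn, vsir, hbaa1, si:ch211-79k12.1, zgc:64051, plekhf1, rgs14a and myh9a. The most similar, rgs13a, a regulator of G protein signalling, had means of 2.72, 4.53, 8.04 and 7.91 in the order GFP-only, double-positive, mCherry-only, double-negative. A second rgs13a probe set had 2.57 and 3.20 in GFP-only and 2.57 and 2.85 in double-positive cells, a difference of -0.18. It was at 7.01 and 6.74 in mCherry-only and 6.17 and 6.76 in double-negative cells. The adaptor gene dok2 (r = 0.984) had 1.36, 3.37, 6.06 and 6.28, and srgn, which codes for the granule proteoglycan serglycin (r = 0.983), had 3.26, 5.04, 8.93 and 9.16. This srgn is also a gene of the granulocyte list. The immune checkpoint gene vsir (r = 0.983) had 3.38, 4.66, 8.49 and 8.04. A globin gene, hbaa1 (r = 0.982), was in this set as well, and was higher by 7.82 in double-negative and by 6.19 in mCherry-only than in GFP-only cells. The nonmuscle myosin gene myh9a (r = 0.976), which binds actin, had 2.49, 4.56, 8.16 and 7.81. By Spearman's correlation 7 of these 10 genes ranked 10 or better, but rgs13a, si:ch211-79k12.1, zgc:64051 and plekhf1 shared rank 9. That tie reached past the first 10 genes. After each tumour's mean was removed, 7 were again among the 10 most similar by Pearson's r. In all, 65 genes had an r above 0.9.

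**Figure D4:**
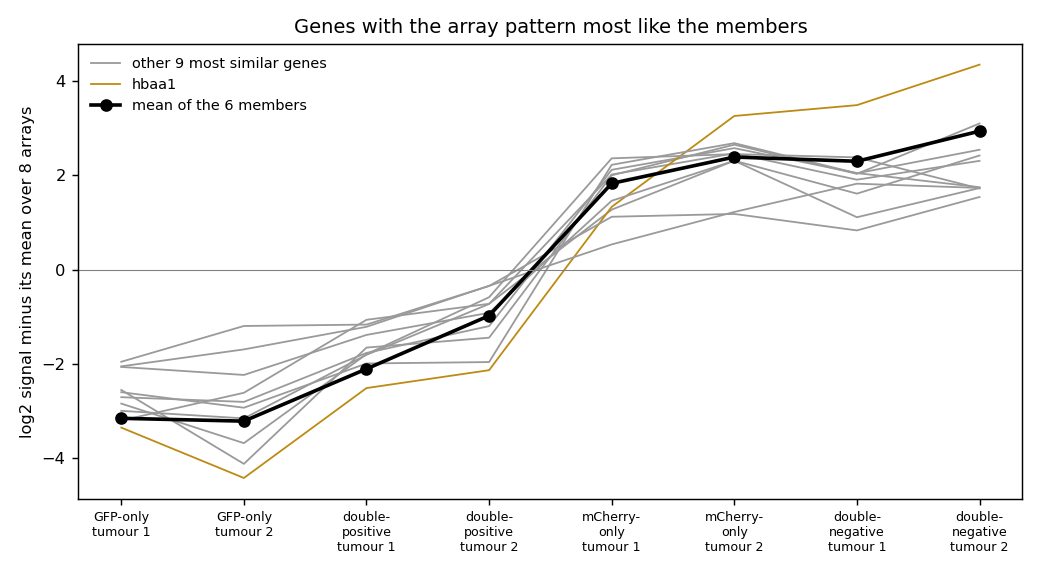
Log2 signal minus its mean over the 8 arrays (vertical axis) for each array (horizontal axis), for the mean of the 6 members (black), the globin gene hbaa1 (gold) and the 9 other genes most like the members (grey). The member mean runs from -3.16 and -3.22 in GFP-only to 2.30 and 2.94 in double-negative cells, with double-positive cells between, at -2.11 and -0.98.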

How the data were processed

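Total RNA of sorted cells was amplified and biotin-labelled with the NuGEN Ovation Pico WTA system, per the labels' protocols, and measured on zebrafish arrays. The deposited log2 values (base not stated; read from a range of 0 to 12.79) were used as the authors gave them; how probes were summarized and arrays scaled is not given in the sources used here. Of 15502 probe sets, 10795 had 1 gene symbol, 135 several and 4572 none; 10711 of the first matched RefSeq identifiers. A gene of a list is its probe set with the highest mean.

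A model of the population means over all 8 arrays was fitted by limma 3.58.1 under R 4.3.3 (lmFit, then eBayes; 4 residual and 6.07 prior degrees of freedom), after a test on simulated data. Tests were two-sided, with Benjamini-Hochberg adjustment over all probe sets within each comparison and a threshold of 0.05. Same-numbered arrays come from the same tumour, which pairs them (correlations of their deviations from -0.0291 to 0.492); the fit with the tumour as a replicate block stands beside results whose call it changes. P-values rest on the spread between the 2 tumours within a population, pooled over the populations and moderated by all probe sets. With the block, a shift common to all populations of a tumour is taken out first. Members and lists were chosen with earlier results of these data known. Listed genes named are the 4 with the largest double-negative minus GFP-only difference of one sign in both tumours, and up to 3 more that passed any comparison.
The genes most like the members were ranked by Pearson's r with the members' centred mean. The marker genes named and the use of synonyms for listed symbols that name no current gene were chosen after values were seen.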

Additional observations from a re-analysis of the deposited data

How the results depend on the processing

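The 4 tested comparisons were repeated with the tumour as a replicate block, quantile normalization, without the dimmest 30% of probe sets, with only the arrays compared, with a trended and robust prior, without both arrays that stood apart, and without each of the 8 arrays. With the replicate block, 6 of 7 probe sets were higher in double-negative and 4 in mCherry-only than in double-positive cells. Calls in the leukocyte cytoskeleton, general actin and leukocyte signalling lists, without the marker lists, rose from 16 to 29 over the 6 comparisons. Without both arrays that stood apart these counts were 1, 0 and 8, with fewer arrays in the fit. The other 4 settings gave 4, 3 to 4 and 11 to 19. With 1 array left out they ran from 0 to 4, 0 to 4 and 4 to 22. Within the GFP-positive and within the GFP-negative pair the count was 0 in every run.

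Signs turned, at adjusted p-values from 0.934 to 1, where the reported difference was small. With 1 array left out, the mCherry-only minus double-negative difference ran from -0.98 to 0.14 for the brighter coro1a probe set, from -0.47 to 0.43 for lcp1, from -1.1 to 0.02 for wasb and from -0.02 to 0.83 for ptprc. The sign turned for coro1a and lcp1 without the second double-negative array, for lcp1 and wasb without the first mCherry-only array and for ptprc without the first double-negative array. Between double-positive and GFP-only cells the dimmer coro1a probe set ran from -0.42 to 0.01, turning without the first double-positive array. The cause was not tested. A group reduced to 1 array is assumed to vary like the others. Signal over background was not measured, so low values limit how far differences can be read.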
